A study of Mus musculus with 6 samples.

Results

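The DnaJ co-chaperones (J-domain proteins of the HSP40 family) were examined in the mRNA of whole mouse testes. Members were all gene symbols in the count tables that begin with Dnaja, Dnajb or Dnajc followed by a digit; 45 of the 21786 symbols present in all 6 libraries met this rule. The libraries came from polyadenylated RNA of 3 Stra8-deficient testes (genotype Stra8 -/-, males aged 1 year, testis grossly enlarged) and of 3 wild-type testes (genotype Stra8 +/+, males aged 2 to 4 months), all on the C57BL/6 background, 1 mouse a library. No source used here describes the allele further. Stra8 is induced by retinoic acid and is required for germ cells to begin meiosis; per the labels the enlarged testes hold chiefly cells resembling type A spermatogonia. The comparison asked how DnaJ mRNA differs between such testes and normal ones. Age and testis size go with genotype in this design, so their effects cannot be told apart.

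A J domain binds an HSP70 chaperone and stimulates its ATPase, and so decides where and on which client the chaperone acts. Class A members carry the domain with a zinc-binding region and a glycine- and phenylalanine-rich linker, class B members carry the domain and the linker, and class C members share the J domain alone. Individual members serve protein folding in the cytosol, the endoplasmic reticulum or the mitochondrion, uncoat vesicles, or work at ribosomes and on nascent RNA. The testis is known for germ cell forms of both partners, J-domain proteins and HSP70s, that are made after meiosis begins.

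Libraries held 6733128 to 12425689 reads in genes. Levels below are CPM, the read count of a gene scaled to the depth of its library, after TMM scaling. The scaling factors were 0.796 to 0.813 for wild type and 1.21 to 1.27 for the Stra8-deficient testes. The Stra8 gene had 211, 249 and 270 reads in the Stra8-deficient and 120, 132 and 93 in the wild-type libraries, which does not check the labels, because no source used here gives the deleted part of the gene. The tissue label was compared with marker genes. Summed CPM of 11 markers of undifferentiated spermatogonia lay between 95.3 and 105.1 in wild type and between 1171 and 1992 in the Stra8-deficient testes. Of these 11, 9 rose and 2, Etv5 (-2.70) and Id4 (-2.76), fell. The sum of 6 markers of differentiating spermatogonia was 1044 to 1075 in wild type and 1880 to 2795 in the Stra8-deficient testes. Of these 6, 4 rose: Kit (2.68), Sohlh1 (4.57), Sohlh2 (3.67) and Ccnd2 (6.67). Dmrtb1 fell (-8.64), and Stra8 was not called (0.21). The sum of 10 spermatocyte markers was 7767 to 8793 in wild type and 238 to 260 in the Stra8-deficient testes. Of these 10, 8 fell, and Sycp1 and Dmc1 were not called (-0.03 and 0.003). Among those that fell were Spo11 (-3.74), Rec8 (-2.86) and, by the least, Sycp3 (-0.39). The sum of 9 spermatid markers was 24660 to 28737 in wild type and 3.33 to 12.3 in the Stra8-deficient testes, and 9 of 9 fell, with Catsper1 and Spata3 at 0 reads in the Stra8-deficient libraries. Somatic markers varied among the Stra8-deficient libraries: 7 Leydig cell markers summed to between 18.4 and 2705 CPM (777 to 1272 in wild type), 9 Sertoli cell markers to between 89.9 and 689 CPM (1729 to 1940 in wild type) and 8 macrophage markers to between 369 and 1155 CPM (86.6 to 93.7 in wild type). Of the 9 Sertoli cell markers 8 fell, and Wt1 was not called (-0.31). Among them Clu alone had 1265 to 1442 CPM in wild type and 121, 31.1 and 586 in the Stra8-deficient libraries. None of the 7 Leydig cell markers was called, and 7 of the 8 macrophage markers rose.

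Summed DnaJ mRNA was lower in the Stra8-deficient testes, and most of the called members fell. The 45 members together reached 2471, 2981 and 3279 CPM in the Stra8-deficient libraries and 6420, 6740 and 6467 CPM in the wild-type libraries. Without any scaling factor they took 0.313% to 0.397% of gene reads in the Stra8-deficient testes and 0.521% to 0.536% in wild type. All 45 passed the filter on low counts and were tested. Of these, 24 fell (53.3%, where 36.7% of all genes tested fell) and 9 rose (20%, where 39.0% of all genes tested rose), by edgeR's quasi-likelihood test with Benjamini-Hochberg adjusted p under 0.05. The remaining 12 were not called. Together 73.3% of the members were called, against 75.8% of the 15018 genes tested. Their median log2 fold change (Stra8-deficient over wild type, used throughout) was -0.73, and that of all genes was 0.11. In a whole tissue, fewer cells of a type and less RNA per cell cannot be told apart.

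These directions moved with the scaling. With library size alone in place of TMM factors, the median of all genes became 0.73, that of the members -0.11, and the calls became 16 higher and 18 lower; for all genes, the calls of 5860 higher and 5519 lower became 7550 and 4326. The libraries of the genotypes did not overlap for 35 of the 45 members (77.8%, against 80.2% of all genes), with the Stra8-deficient libraries above in 9 and below in 26. Against a fold of 2 (edgeR's glmTreat), 18 members were lower and 2 higher, where 27.4% of all genes were lower and 25.5% higher. Those 20 members were 44.4% of the list, against 52.8% of all genes.

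**Figure D1:**
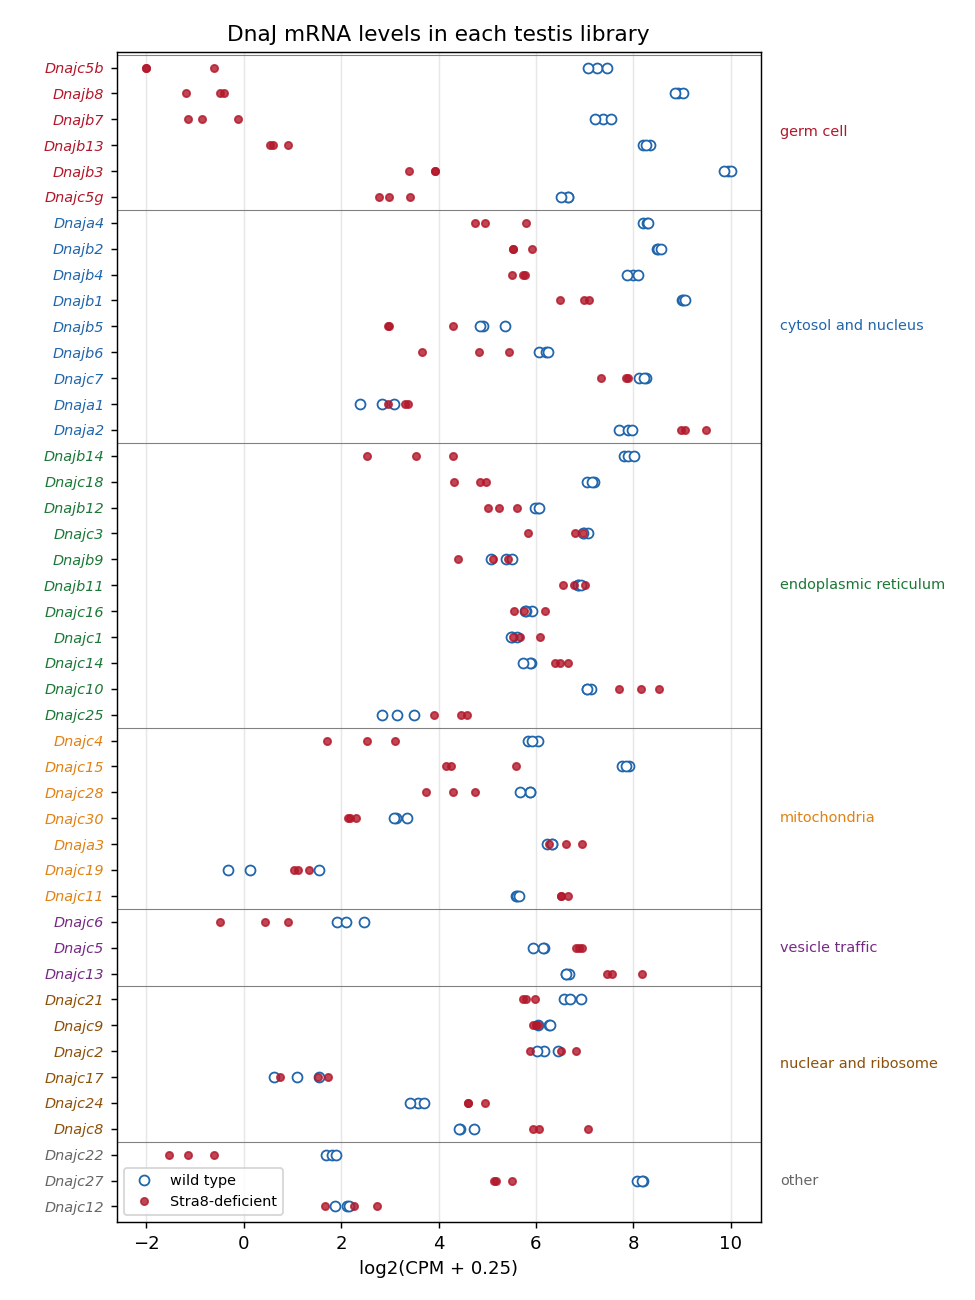
Level of each DnaJ gene in each library, as log2(CPM + 0.25) on the horizontal axis; open circles are the 3 wild-type and filled circles the 3 Stra8-deficient libraries, with genes grouped by role. The germ cell members at the top stand far apart between genotypes, while several endoplasmic reticulum members overlap or lie close.

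The 3 structural classes differed in their counts. Of 13 class B members 11 fell and 0 rose by edgeR (median -2.32), and 0 rose at an unadjusted p under 0.05, in DESeq2 or in limma voom as well. Those that fell include the germ cell forms Dnajb3, Dnajb7, Dnajb8 and Dnajb13, described next. Among all genes tested 36.7% fell and 39.0% rose. With library size alone 8 class B members fell, 1, Dnajb11, rose, and the median was -1.70. Of 28 class C members 12 fell and 8 rose (median -0.09, and 0.53 with library size alone). Of 4 class A members 1 fell and 1 rose (median 0.39, and 0.23 without the first Stra8-deficient library); with library size alone 1 fell and 3 rose (median 1.01).

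All 6 members listed as germ cell forms fell, and 5 of them had the lowest log2 fold changes of all members (0 were higher by edgeR at an unadjusted p under 0.05, by DESeq2 or by limma voom). Among all genes tested 36.7% fell. Dnajb3, on chromosome 1, encodes a J-domain protein of spermatids and was the most abundant member in wild type, at 981, 1029 and 926 CPM. It was read at 15.1, 10.2 and 15.0 CPM in the Stra8-deficient libraries, so that the genotypes lay far apart (log2 fold change -6.19 ± 0.25, SE; edgeR, adjusted p = 6.35e-08). Dnajb3 held 14.3% to 15.3% of all member CPM in wild type and 0.342% to 0.609% in Stra8-deficient libraries. Per kilobase of exon it was also first in wild type, at 931 CPM per kb, ahead of Dnajb8 at 492.

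Dnajb8, on chromosome 6, is a testis relative of the anti-aggregation chaperone Dnajb6. Its levels were 483, 519 and 459 CPM in wild type and 0.502, 0.191 and 0.469 CPM in the Stra8-deficient libraries, from 5, 2 and 7 reads. The ratio of summed rates, wild type over Stra8-deficient, was 1238 (95% counting interval 737 to 2265; -10.22 ± 0.31; edgeR, adjusted p = 2.71e-08). Dnajb8 shares exonic bases with 1700031F10Rik on the other strand in the GENCODE annotation, and 51.3% of the 40-base windows of its transcript occur in transcripts of that gene too. Per the sources used here strand was not stated, so its reads cannot be fully separated from that gene's.

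Dnajb7, a testis member on chromosome 15, had 166, 185 and 149 CPM in wild type. In the Stra8-deficient libraries 3, 7 and 3 reads gave 0.301, 0.667 and 0.201 CPM. All wild-type values were thus far above all Stra8-deficient ones, with a rate ratio of 458 (95% counting interval 267 to 861; -8.76 ± 0.34, and -9.39 without the second Stra8-deficient library). Dnajb13, on chromosome 7, encodes a radial spoke protein of sperm flagella and motile cilia. It fell from 294, 325 and 308 CPM to 1.20, 1.62 and 1.27 CPM (-7.81 ± 0.23; edgeR, adjusted p = 2.71e-08).

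Dnajb13 and Dnajc5b share 10.4% and 17.8% of their 40-base windows with other genes.

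Both testis relatives of the cysteine string protein fell as well, but not to the same level. Dnajc5b, on chromosome 3, had 153, 176 and 133 CPM in wild type, and in the Stra8-deficient libraries 4 reads in the first library and 0 in each of the other two. A count of 0 allows up to 3 reads, or 0.286 CPM in the second and 0.201 CPM in the third, for counting error alone. Its rate ratio was 1377 (95% counting interval 537 to 5056; -10.23 ± 0.57, and -13.43 without the first or -9.51 without the third Stra8-deficient library). Dnajc5g, on chromosome 5, kept a low level in every Stra8-deficient library, 7.63, 10.5 and 6.56 CPM against 101.0, 101.2 and 91.5 in wild type (-3.58 ± 0.23; edgeR, adjusted p = 9.49e-07). The somatic paralog Dnajc5, described with the vesicle proteins, rose.

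The germ cell members together made up 31.9% to 34.7% of all member CPM in wild type and 0.717% to 1.02% in the Stra8-deficient libraries. Beside them 9 of 9 spermatid and 8 of 10 spermatocyte markers fell, and the part of cell composition in these values was not tested. Without the 6, the other 39 members still summed to 4242 to 4404 CPM in wild type and 2446 to 3255 CPM in Stra8-deficient libraries, with 18 lower and 9 higher. Their median log2 fold change was -0.29. Among all genes tested 36.7% fell and 39.0% rose.

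**Figure D2:**
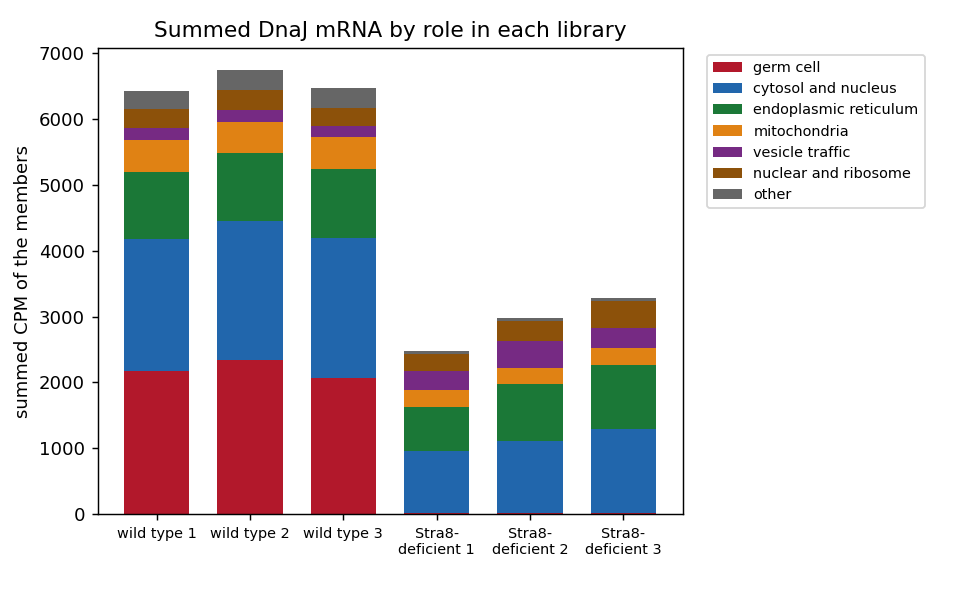
Summed CPM of the DnaJ genes in each library, stacked by role (vertical axis from 0, 1 bar per library). The germ cell share, the lowest block in the wild-type bars, is too thin to see in the Stra8-deficient bars, and the whole bar falls from between 6420 and 6740 to between 2471 and 3279 CPM.

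Of the 4 members whose longest coding sequence lies in a single exon in the GENCODE annotation (Dnajb3, Dnajb7, Dnajb8 and the mitochondrial Dnajc30), all 4 fell. Among all 837 genes tested with 1 coding exon, 47.0% fell and 33.1% rose.

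In the cytosolic and nuclear folding group, 7 of 9 members fell and 1 rose, with a median of -1.52. Under library size alone these became 4, 2 and -0.90. With TMM factors 36.7% of all genes tested fell and 39.0% rose. Dnajb1, the classical heat-inducible HSP40 that sorts non-native proteins to HSP70, was the second most abundant member in wild type. It fell from 509, 516 and 534 CPM to 89.8, 126 and 136 CPM (-2.15 ± 0.20; edgeR, adjusted p = 1.18e-05), with no overlap. Dnaja4, a class A co-chaperone, had the lowest log2 fold change of the group: 292, 309 and 315 CPM in wild type and 30.9, 55.4 and 26.7 in Stra8-deficient libraries (-3.02 ± 0.28; edgeR, adjusted p = 1.23e-05). Its exons overlap Wdr61 on the other strand, and 52.0% of its 40-base windows occur in that gene's transcripts, so part of its reads may belong to Wdr61.

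Dnaja2 went the other way and became the leading DnaJ transcript of the Stra8-deficient testis. This class A folding co-chaperone on chromosome 8 rose from 209, 236 and 249 CPM to 507, 531 and 717 CPM (1.34 ± 0.20; edgeR, adjusted p = 2.11e-04). It held 17.8% to 21.9% of all member CPM there, against 3.25% to 3.85% in wild type, and ranked first per kilobase of exon in the Stra8-deficient libraries as Dnajb3 did in wild type (200.4 CPM per kb). Dnaja1, its close relative, was read at only 4.95 to 10.0 CPM in the 6 libraries and was not called (0.43 ± 0.31; edgeR, adjusted p = 0.224), though it was called higher with library size alone (1.05). Of the 40-base windows of Dnaja1, 29.8% occur in transcripts of other genes, among them processed copies, so its level is uncertain.

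The remaining members of this group all fell, by different amounts. Dnajb2, which carries ubiquitin-interacting motifs, fell by 2.86 ± 0.19 on the log2 scale, and Dnajb4 by 2.32 ± 0.17. Dnajb5 fell by 1.52 ± 0.39, with Stra8-deficient values of 19.5, 7.53 and 7.64 CPM (-2.15 without the first of them). Dnajb6, which keeps aggregation-prone proteins soluble, fell by 1.36 ± 0.38 and spread from 12.4 to 43.1 CPM among the Stra8-deficient libraries; 44.0% of its 40-base windows occur in transcripts of other genes. Neither of these 2 genes was called with library size alone (adjusted p = 0.0647 and 0.0837). Dnajc7, a tetratricopeptide protein that links HSP70 and HSP90, fell least, by 0.48 ± 0.19 (edgeR, adjusted p = 0.0462). It shares 16.1% of its 40-base windows, chiefly with Nkiras2. That call was lost without any 1 wild-type library (-0.47 to -0.53), without the filter on low counts and with upper-quartile factors (-0.21), and with library size alone the value was 0.13.

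**Figure D3:**
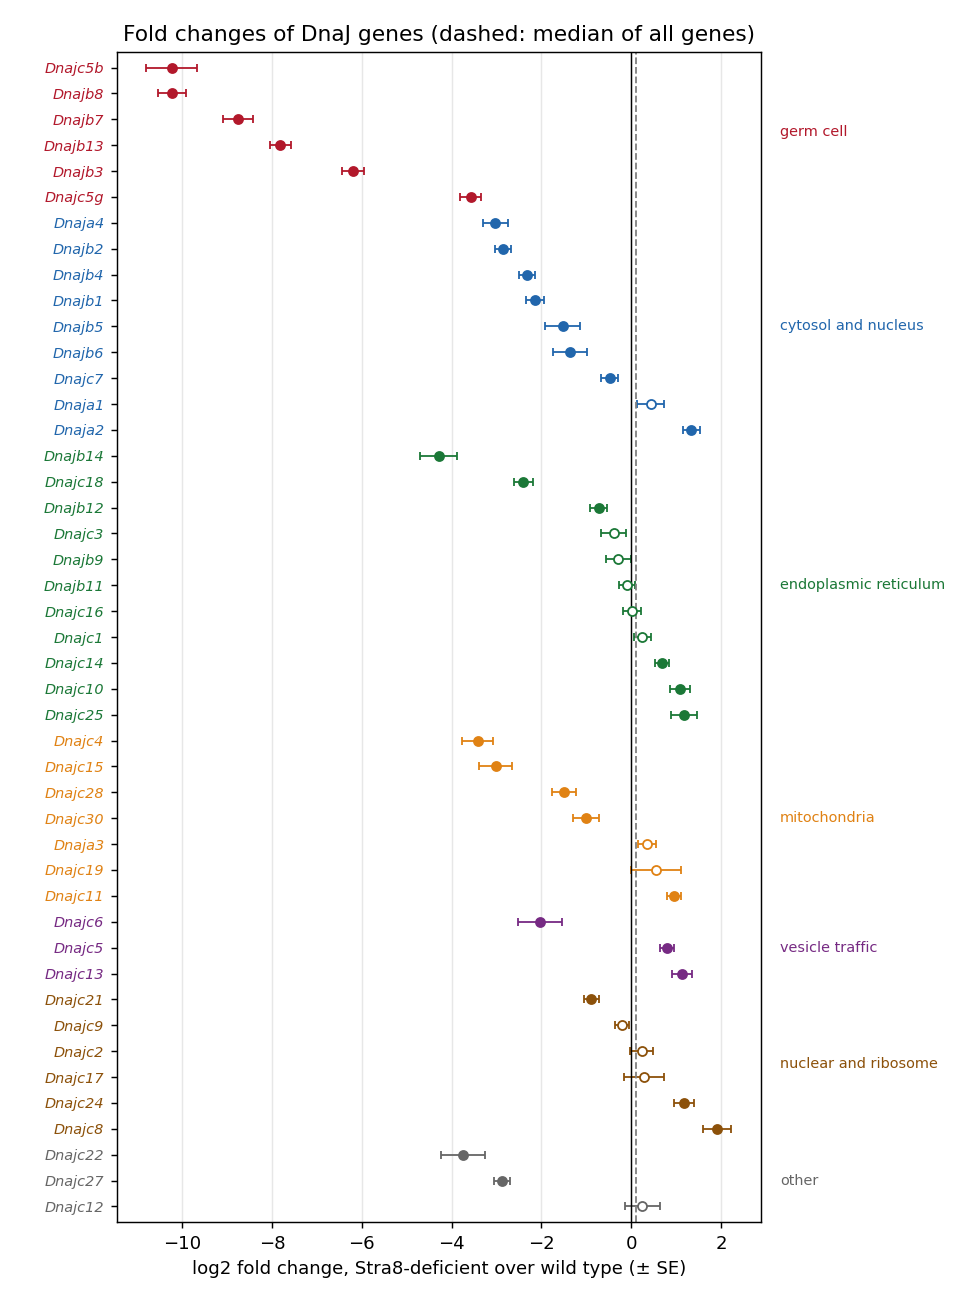
Log2 fold change of each DnaJ gene, Stra8-deficient over wild type, with its SE; filled points were called (edgeR, adjusted p under 0.05), open points were not, and the dashed line is the median of all genes at 0.11. All 6 germ cell members lie at or below -3.58, and 7 of the 9 cytosolic members lie below 0 as filled points, with Dnaja2 above it.

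Among the 11 endoplasmic reticulum members 3 fell, 3 rose and 5 were not called (median -0.09). When only library size was used, 6 rose and 2 fell, and the median was 0.52. The shares of all genes tested, with TMM factors, were 36.7% lower and 39.0% higher. Some luminal co-chaperones of BiP were not called. Dnajb11 was at -0.09 ± 0.17 and Dnajb9, which the unfolded protein response induces, at -0.29 ± 0.28. Dnajc3, which also protects cells under endoplasmic reticulum stress, was at -0.39 ± 0.27. Hspa5, which encodes BiP, had 729, 1004 and 870 CPM in Stra8-deficient and 856, 871 and 801 CPM in wild-type libraries, overlapping ranges (0.04 ± 0.18; edgeR, adjusted p = 0.841). Both Dnajb11 (0.52) and Hspa5 (0.66) were called higher with library size alone. Dnajc10, another luminal member, reduces disulfides of misfolded proteins. It did rise, from 132, 140.3 and 131 CPM to 208, 285 and 368 CPM (1.09 ± 0.22; edgeR, adjusted p = 0.00154). It was the second most abundant member in the Stra8-deficient libraries.

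Both membrane-anchored co-chaperones of endoplasmic reticulum-associated degradation fell, to very different degrees. Dnajb14 had 222, 237 and 258 CPM in wild type and 5.52, 11.4 and 19.3 CPM in Stra8-deficient libraries, the lowest log2 fold change outside the germ cell group (-4.29 ± 0.40; edgeR, adjusted p = 1.22e-05). Its close relative Dnajb12 fell by 0.73 ± 0.20 (edgeR, adjusted p = 0.00810), and that call was lost with library size alone (-0.11) and with upper-quartile factors (-0.45). Dnajc18, another membrane member, fell by 2.40 ± 0.21. Dnajc25, at the other end of the group, rose from 11.1, 6.92 and 8.62 CPM to 14.7, 23.8 and 21.8 CPM (1.18 ± 0.29; edgeR, adjusted p = 0.00486), and Dnajc14, with 26.0% of its 40-base windows shared, by 0.68 ± 0.16. Dnajc1 and Dnajc16 were not called, at 0.25 ± 0.20 and 0.02 ± 0.20; with library size alone both were called higher (0.87 and 0.65), and Dnajc1 also with upper-quartile factors (0.53).

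Of 7 mitochondrial members 4 fell and 1 rose, with a median of -1.01. Under library size alone these became 3, 2 and -0.40. Of all genes tested with TMM factors, 36.7% fell and 39.0% rose. Dnajc15, a relative of the J protein of the mitochondrial import motor, fell by 3.02 ± 0.38, from between 217 and 241 CPM in wild type to 19.0, 17.6 and 47.7 CPM; without the third Stra8-deficient library the value was -3.65. Dnajc19, the other member of that kind, had 0.550 to 2.65 CPM in the 6 libraries, too few reads for a firm value (0.55 ± 0.55; edgeR, adjusted p = 0.379). Dnajc4 had the lowest log2 fold change of the group. It went from 57.1, 65.2 and 60.5 CPM to 3.01, 5.53 and 8.31 CPM (-3.42 ± 0.34; edgeR, adjusted p = 1.75e-05), with no overlap.

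Dnajc28 fell by 1.50 ± 0.27 and Dnajc30, which binds the ATP synthase machinery, by 1.01 ± 0.28. The call of Dnajc30 was lost without the third wild-type library (adjusted p = 0.0515) and with library size alone (adjusted p = 0.230), and 25.4% of its 40-base windows occur in other genes. Dnajc11, an outer-membrane protein tied to the cristae-organizing complex, was the exception of the group. It rose from 47.8, 48.4 and 50.3 CPM to 91.5, 91.7 and 100.7 CPM (0.96 ± 0.15; edgeR, adjusted p = 4.00e-04). Dnaja3, the matrix folding co-chaperone, was at 0.35 ± 0.20 and not called (edgeR, adjusted p = 0.141); it was called higher without the third Stra8-deficient library (adjusted p = 0.0250), with upper-quartile factors and with library size alone.

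The vesicle proteins split by member. Dnajc13, which acts in endosomal sorting, rose from 98.2, 101.5 and 97.4 CPM to 175, 287 and 188 CPM (1.13 ± 0.22; edgeR, adjusted p = 0.00109). Dnajc5, the cysteine string protein that guards exocytosis, rose by 0.79 ± 0.16 (113, 123 and 118 CPM against 72.0, 70.7 and 61.4 in wild type). Dnajc6, the clathrin-uncoating auxilin known chiefly from neurons, was scarce in both genotypes, at 5.31, 3.53 and 4.04 CPM in wild type and 1.10, 1.62 and 0.469 CPM in Stra8-deficient libraries (-2.03 ± 0.49; edgeR, adjusted p = 0.00408).

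Members that work in the nucleus and at the ribosome were divided, with 2 higher, 1 lower and 3 not called out of 6 (median 0.25). The median was 0.01 without the third Stra8-deficient, 0.45 without the second wild-type and 0.09 without the third wild-type library. Scaling by library size alone gave 0.87, with 4 higher. With TMM factors 39.0% of all genes tested were higher and 36.7% lower. Dnajc8, found in spliceosomes and with 14.5% of its 40-base windows shared, had the highest log2 fold change of all members. It rose from 26.4, 21.6 and 21.3 CPM to 61.2, 66.2 and 133 CPM (1.91 ± 0.31; edgeR, adjusted p = 4.37e-04), with the last of these well above the other two. Dnajc24, needed to make diphthamide on elongation factor 2, rose by 1.18 ± 0.22. Dnajc21, a factor of large-subunit ribosome maturation, fell from 95.6, 103 and 120.3 CPM to 53.1, 55.5 and 63.3 CPM (-0.89 ± 0.17; edgeR, adjusted p = 0.00108), a call lost with library size alone (-0.28).

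Dnajc9, a histone chaperone, had 61.2, 63.6 and 65.4 CPM in Stra8-deficient and 76.7, 77.5 and 65.5 CPM in wild-type libraries, nearly touching ranges, and was not called (-0.21 ± 0.16). With library size alone it was called higher (0.41; edgeR, adjusted p = 0.0386). Dnajc2, which binds ribosomes with the HSP70 relative Hspa14, was at 0.23 ± 0.25 and not called (called higher with library size alone, at 0.84), while Hspa14 rose from 30.3, 34.2 and 27.1 CPM to 135, 170 and 177 CPM (2.39 ± 0.19; edgeR, adjusted p = 3.76e-06). Dnajc17, at 1.28 to 3.08 CPM in the 6 libraries, was not called either (0.28 ± 0.45). Shares of 40-base windows that occur in other genes were 15.5% for Dnajc2, 16.1% for Hspa14 and 32.4% for Dnajc17.

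Among the other members, Dnajc27, a small GTPase with a J domain, fell from 270.4, 293 and 288 CPM to 34.8, 45.2 and 36.2 CPM (-2.87 ± 0.18; edgeR, adjusted p = 8.68e-07). Dnajc22 was near the limit of detection, at 2.97, 3.25 and 3.49 CPM in wild type and 4, 1 and 3 reads in the Stra8-deficient libraries (-3.75 ± 0.50; rate ratio wild type over Stra8-deficient 14.2, 95% counting interval 6.79 to 34.5). Dnajc12, which assists phenylalanine hydroxylase, had 2.91, 4.57 and 6.43 CPM in Stra8-deficient and 3.44, 4.09 and 4.22 CPM in wild-type libraries and was not called (0.25 ± 0.38).

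The Stra8-deficient testes varied more among themselves than the wild-type testes. The median coefficient of variation of the members was 23.4% over the 3 Stra8-deficient and 6.73% over the 3 wild-type libraries. The wider spread was not particular to these genes. Over 13804 to 14307 genes, chi-square per degree of freedom was 53.6 to 65.2 between Stra8-deficient and 2.74 to 4.40 between wild-type libraries. The highest Stra8-deficient library was more than 2-fold above the lowest for 17 members, among them Dnajb14, Dnajb6, Dnajc15, Dnajc4 and Dnajc8, and the same held for 2 members in wild type, the scarce Dnajc17 and Dnajc19. The third Stra8-deficient library, whose reads were counted on a longer list of symbols, was the highest of its genotype for 21 members and the lowest for 9. The first was the highest for 9 and the lowest for 26. Without the third library the calls were 10 higher and 24 lower, and without the first 9 higher and 24 lower.

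Start-site windows were searched for motifs of factors known to control chaperones and germ cell genes. RefSeq windows of 300 bases (GRCm38.p6, 250 before and 50 after the start) matched 37 of the 45 members by symbol, in 50 windows. The heat shock element core, GAANNTTC, which is its own reverse complement, was present in 6 of the 50 windows, belonging to 5 members (Dnaja1, Dnaja4, Dnajb6, Dnajc27 and Dnajc5g), and in 7.86% of all 32851 windows. Overlapping windows of Dnajb6 hold the same site, which is counted in each of them. The cAMP response element TGACGTCA, also its own reverse complement and bound in spermatids by the activator CREM, was present in 1 member window and in 1.79% of all windows. The endoplasmic reticulum stress element, searched on both strands, was present in 1 member window and in 0.119% of all windows. No match in a member window overlapped a match to another motif. Only full motifs were searched, and not parts of them.

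The 250 bases before the start are shown for 5 members: both most abundant germ cell forms, whose windows hold none of these full motifs, the member with 2 heat shock cores, the member with the cAMP response element, and the member with the stress element. They run 5′ to 3′ on the gene's strand, with matches in capitals. A match is a description of the letters and no evidence of binding.
Dnajb3, chr1:88205749-88205998, minus strand: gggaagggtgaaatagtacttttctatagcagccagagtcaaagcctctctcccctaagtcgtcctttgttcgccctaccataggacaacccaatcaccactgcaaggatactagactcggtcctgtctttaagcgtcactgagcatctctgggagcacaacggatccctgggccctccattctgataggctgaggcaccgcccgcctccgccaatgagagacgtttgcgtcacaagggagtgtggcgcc
Dnajb8, chr6:88222018-88222267, plus strand: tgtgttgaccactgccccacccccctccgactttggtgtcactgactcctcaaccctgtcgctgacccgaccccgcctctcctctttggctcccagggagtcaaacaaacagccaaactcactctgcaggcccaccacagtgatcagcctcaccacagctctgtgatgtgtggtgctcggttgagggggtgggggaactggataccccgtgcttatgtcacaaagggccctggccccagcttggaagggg
Dnaja4, chr9:54699309-54699558, plus strand: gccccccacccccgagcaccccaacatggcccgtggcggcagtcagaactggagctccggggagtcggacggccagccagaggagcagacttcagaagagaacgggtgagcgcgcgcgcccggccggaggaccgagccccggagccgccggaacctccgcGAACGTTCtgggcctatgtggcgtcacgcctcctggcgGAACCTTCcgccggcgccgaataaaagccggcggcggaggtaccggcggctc
Dnajc27, chr12:4082324-4082573, plus strand: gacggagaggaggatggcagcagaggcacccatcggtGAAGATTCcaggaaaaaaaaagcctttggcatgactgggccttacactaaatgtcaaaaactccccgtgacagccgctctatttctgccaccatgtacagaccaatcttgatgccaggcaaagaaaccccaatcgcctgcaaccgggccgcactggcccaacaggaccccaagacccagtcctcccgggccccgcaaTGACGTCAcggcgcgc
Dnajc3, chr14:118937682-118937931, plus strand: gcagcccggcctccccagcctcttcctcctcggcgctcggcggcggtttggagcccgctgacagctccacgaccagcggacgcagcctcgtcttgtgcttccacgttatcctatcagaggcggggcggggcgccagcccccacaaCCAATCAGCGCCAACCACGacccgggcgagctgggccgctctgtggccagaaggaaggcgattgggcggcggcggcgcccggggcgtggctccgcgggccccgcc

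The cores of Dnaja4 (GAACGTTC and GAACCTTC) begin 90 and 52 bases before the start, that of Dnajc27 (GAAGATTC) 213 bases before it and its cAMP response element 16 bases before it. The stress element of Dnajc3 begins 105 bases before the start. Of the members with the heat shock core, Dnaja4, Dnajb6, Dnajc27 and Dnajc5g fell, and Dnaja1 was not called. Among all members 53.3% fell, and among all genes tested 36.7%. A link between the core and the direction was not tested.

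Genes for the partners of the DnaJ proteins moved in both directions. Of 47 listed partner genes, all tested, 20 rose and 11 fell (16 not called), where 39.0% of all genes tested rose and 36.7% fell. Hspa5 above and Hspa14 were named after their values were seen, the other partner genes by the rule for named genes. Among 11 HSP70 genes 4 rose and 4 fell. Hspa2, the HSP70 that spermatocytes need for meiosis, fell from 2122, 2259 and 2496 CPM to 13.0, 19.2 and 18.4 CPM (-7.08 ± 0.26; edgeR, adjusted p = 4.29e-08), and Hspa1l, the spermatid HSP70, from 868, 915 and 786 CPM to 9.84, 11.7 and 6.09 CPM (-6.54 ± 0.30). Hspa8, the constitutive HSP70 (4.36 ± 0.58), and the inducible Hspa1b (3.71 ± 0.50) were higher. Hspa8 was read at only 0.367 to 4.06 CPM in wild type, and 77.2% of its 40-base windows occur in other genes' transcripts (65.2% for Hspa1b and 71.6% for Hspa1l), so the levels of these 3 genes are uncertain.

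Of 13 nucleotide exchange factors, which release ADP from HSP70 after a J protein has loaded it, 5 rose and 5 fell. Among all genes tested 39.0% rose and 36.7% fell. Bag5 fell from 966, 1073 and 1061 CPM to 23.3, 32.5 and 24.0 CPM (-5.28 ± 0.23; edgeR, adjusted p = 9.25e-08), and Hspa4l, a germ cell member of the HSP110 family, by 4.05 ± 0.21. Its relative Hsph1 (1.17 ± 0.34) and the mitochondrial Grpel2 (2.16 ± 0.26) rose.

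Of 10 HSP90 chaperones and cofactors 6 rose and 0 fell by edgeR's quasi-likelihood test, where 39.0% of all genes tested rose and 36.7% fell. In that test 1 was lower at an unadjusted p under 0.05. DESeq2 called 1 lower and limma voom 1. Hsp90ab1, the constitutive cytosolic HSP90, rose from 237, 220 and 179 CPM to 1023, 739 and 1047 CPM (2.14 ± 0.21; edgeR, adjusted p = 1.70e-05), and Ahsa1, which activates its ATPase, by 2.20 ± 0.23. The adaptor Stip1, which hands clients from HSP70 to HSP90, rose by 0.77 ± 0.15 and the cofactor Ptges3 by 1.07 ± 0.21. Ahsa1 and Ptges3 share 16.0% and 22.6% of their 40-base windows with other genes. Of 4 J-domain genes with other names 2 rose (4 with library size alone). Hscb, the mitochondrial iron-sulfur cluster co-chaperone, rose by 3.09 ± 0.28 and Sec63, of the protein translocation channel, by 0.46 ± 0.15; the call of Sec63 was lost without any 1 wild-type library (0.40 to 0.51), with RLE size factors (0.35) and in DESeq2 (0.35).

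**Figure D4:**
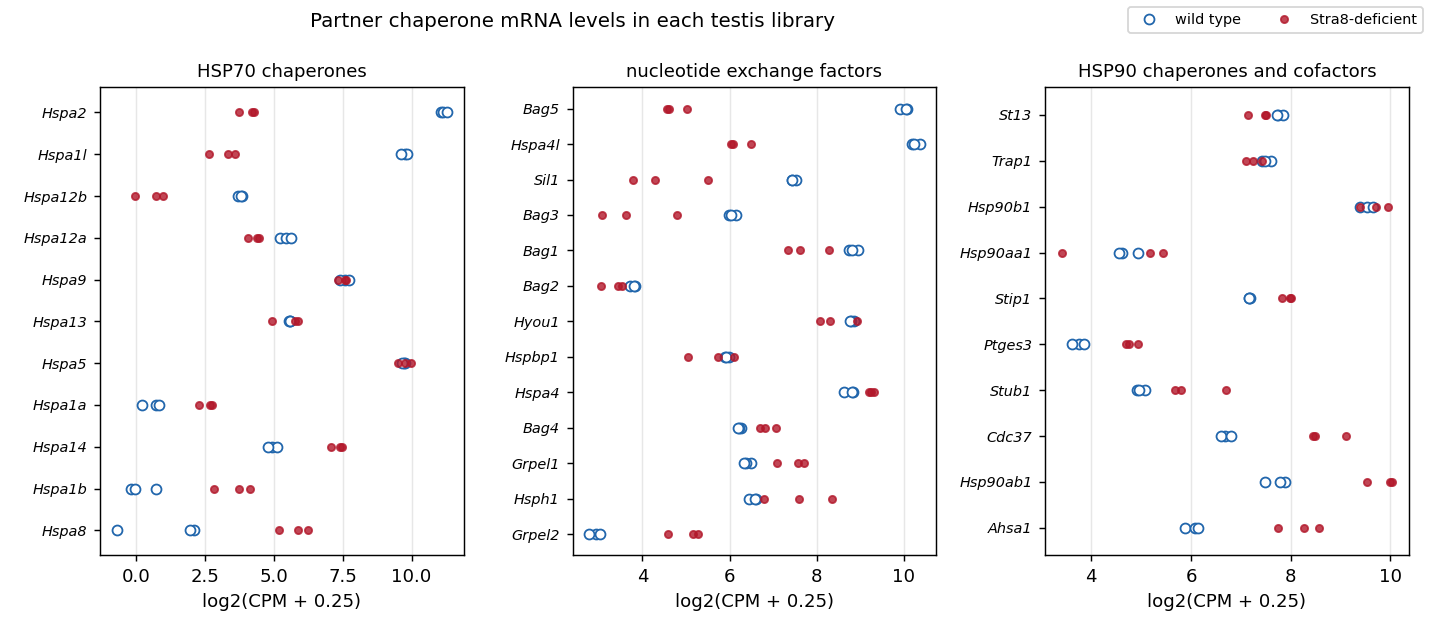
Levels of HSP70 genes, nucleotide exchange factors and HSP90 genes in each library, as log2(CPM + 0.25); open circles are wild-type and filled circles Stra8-deficient libraries. Hspa2, Hspa1l, Bag5 and Hspa4l lie far lower in Stra8-deficient libraries, and Hspa8, Grpel2 and Ahsa1, in the last row of each panel, lie higher there.

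Regulators of chaperone genes were read as well, and 3 of 9 rose and 2 fell, where 39.0% of all genes tested rose and 36.7% fell. Hsf5, a germ cell member of the heat shock factor family, fell from between 558 and 569 CPM to 21.6, 18.0 and 16.7 CPM (-4.90 ± 0.20; edgeR, adjusted p = 6.78e-08), and Ddit3, a target of endoplasmic reticulum stress, by 1.67 ± 0.23. Atf4, an activator in the integrated stress response, rose by 1.47 ± 0.20 and Hsf4 by 2.78 ± 0.57 from under 1 CPM in each wild-type library (3.56 without the first wild-type library).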

How the data were processed

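mRNA of 6 whole testes, 3 a genotype, was measured by sequencing. Per the submitters' processing notes, the tools TopHat, HTSeq and edgeR and the build mm9 were used, with no role or order given; strand was not stated. The deposited tables hold whole read counts per gene symbol, with outside-gene reads of 20.9% to 34.5% left out here. The authors' deposited comparison table, used only as a check, gives a log2 ratio and a false-discovery p-value per gene. The third Stra8-deficient table lists 23285 symbols and the others 22055; the 21786 shared symbols were kept.

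Counts were tested with edgeR 4.0.16 (R 4.3.3): filterByExpr (15018 genes kept), TMM factors, robust quasi-likelihood fit without a block, and Benjamini-Hochberg adjustment over all genes at 0.05. Errors after ± are SE, taken from the log2 fold change and its F statistic. Rate ratios use summed reads with an exact 95% interval, which covers counting error only. Alternatives used limma 3.58.1 and DESeq2 1.42.0 and other scalings, filters and left-out libraries.

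Members and lists were chosen with earlier results of these data known. Every member could be named; values in every library were given for germ cell members, the extreme called members of each role, those opposite to their group's majority, and the 2 most abundant in each genotype. Of partner genes, the 2 highest and 2 lowest called in each list were named. Exon length, coding exons, overlaps and 40-base windows come from GENCODE M21, which is not the authors' build. They were matched to the counts by gene symbol and not by coordinates. Levels per kilobase and calls by coding exons therefore rest on gene models other than those used for counting. Same-numbered libraries are separate mice.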

Additional observations from a re-analysis of the deposited data

How the results depend on the processing

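Fold changes of members and named partner genes, and counts and medians of lists, were recomputed under 14 alternatives. Of the 630 member values so obtained, 582 kept their direction and side of the threshold, 26 lost the call and 8 gained one in the same direction, and 14 changed sign (with library size alone, Dnajb11 and Dnajc9 were then called higher and Dnajc7 lost its call); the cause was not tested, except that the fold-2 test asks for more than a difference. Members called higher numbered 16 with library size alone and 2 in the fold-2 test; all genes called higher numbered 3826 and partner genes called higher 11 in the fold-2 test. Leaving out 1 library gave 9 to 10 members higher and 22 to 24 lower, 5268 to 5939 genes higher and 5089 to 5831 lower, and 18 to 23 partner genes higher and 11 to 15 lower.

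Sign changes concerned members with small values. With library size alone Dnajb11 was at 0.52, Dnajb9 at 0.32, Dnajc3 at 0.22, Dnajc7 at 0.13 and Dnajc9 at 0.41, and with upper-quartile factors Dnajb11 was at 0.18 and Dnajc9 at 0.068. Dnajc16 was at -0.091 with RLE size factors and in DESeq2 and at -0.0050 in limma voom, and it ranged from -0.20 to 0.12 when 1 library was left out (-0.011 and -0.021 without the second and the third wild-type library). Dnajc12 ranged from -0.069 to 0.46 when 1 library was left out, the former without the third Stra8-deficient library. Hspa5 was at 0.66 and called higher with library size alone (edgeR, adjusted p = 0.00777), and it was at -0.074 with RLE size factors and in DESeq2, -0.12 without the second Stra8-deficient and -0.0076 without the third wild-type library.

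The replicate block gave 9 members higher and 23 lower, with Dnajc7 not called (-0.50; edgeR, adjusted p = 0.0546), 5660 genes higher and 5558 lower, and 18 partner genes higher and 11 lower. Same-numbered libraries had correlated deviations of 0.06, 0.08 and -0.04. The first and the second Stra8-deficient library each correlated best with the same-numbered wild-type library, and the third with the first wild-type library. With 3 libraries a genotype, values this small cannot decide whether the numbers pair the samples. For members with few reads, such as Dnajc19, Dnajc17 and Dnajc22, depth limits the precision, since 3 reads correspond to 0.241 to 0.446 CPM before scaling.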

Other observations

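The authors' deposited table lists all 45 DnaJ genes and calls 9 higher and 23 lower at its own false-discovery p under 0.05, with 0 in the opposite direction to the calls above. Dnajc7 is the member called only here (false-discovery p = 0.158 in the authors' deposited table). The log2 ratios there differed from those given here by at most 0.18, at Dnajc30, which the authors' deposited table gives at -0.83.

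The make-up of DnaJ mRNA differed between genotypes as well as its amount. Endoplasmic reticulum members made up 15.4% to 16.2% of member CPM in wild type and 26.9% to 29.5% in the Stra8-deficient testes. In the same order, vesicle members made up 2.52% to 2.73% and 9.34% to 13.8%, and nuclear and ribosome members 4.39% to 4.52% and 10.1% to 12.5%. Shares of the cytosolic members were closer, 31.2% to 32.9% in wild type and 36.7% to 38.7% in the Stra8-deficient testes, and so were those of the mitochondrial members, 7.01% to 7.73% and 7.92% to 10.4%. A share rises when others fall, so these values do not by themselves show a higher level.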
